A study of Homo sapiens with 21 samples.

Results

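The regions described here are stretches of open chromatin that lie inside protein-coding genes, away from both gene ends, and that were found in every library of the series. In ATAC-seq a transposase inserts sequencing adapters into accessible DNA, and a peak is a stretch where the resulting tags pile up. Peaks of all 21 lists that shared at least 1 bp were merged into 166736 regions, and a region counted as called in a library that had at least 1 peak there. Of the 25599 regions called in 21 of 21 libraries, 8563 (33.5%) met the rule used here. They were on autosomes, inside the span of a protein-coding gene and more than 1 kb from the ends of any such gene. They made up 5.14% of all regions and 12.8% of the 67098 intragenic autosomal regions called in any number of libraries. Membership was set by the calls themselves, so the calls are given as a description and are not tested.

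The cells were microglia-like cells made from the human embryonic stem cell line H9 by 28 days of microglial differentiation, with CD200 and CX3CL1 in the medium for the last 3 days, and 80000 sorted cells were used per line. The unedited parent (WT) stood beside 6 lines made from it by CRISPR/Cas9, each with 3 libraries: TREM2-R47H and TREM2-KO, 2 changes of the lipid receptor TREM2; SORL1-A528T and SORL1-KO, 2 changes of the endosomal sorting receptor SORL1; CD33 SNP, a variant at the gene of a sialic acid receptor; and INPP5D SNP, a variant at the gene of an inositol phosphatase. All edits were homozygous per the labels' protocols, which name R744X as the SORL1 change other than A528T; the sources used here do not give the number of clones per line. The libraries titled SORL1-A528T carry the genotype label TREM2-KO and were grouped by title. The sources used here do not say whether the replicates were separate differentiations, so a p-value measures only how far these libraries spread, and that spread may be technical.

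Open regions inside genes are of several kinds. Introns of long genes hold enhancers, stretches bound by transcription factors that raise transcription of the host gene or of a neighbour, and genes with several promoters have further start sites inside their span. In microglia and other macrophages many such elements are bound by the ETS factor PU.1 together with factors such as RUNX1, MEF2C, AP-1 and C/EBP. Promoters used in nearly every cell type are usually rich in G, C and CpG, with GC boxes bound by Sp1-type factors.

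The height of a peak was not in the lists, so the order of peaks in each list was used in its place. The sources used here do not say that this order is by height, so a percentile is a place in the list and not a measured strength. For each library the 25599 regions called everywhere were ranked by their first-listed peak and given a file-order percentile from 0 to 100, where 100 is the top of the list. The median over the intragenic regions of the mean percentile was 40.04, with quartiles at 22.7 and 61.8. An annotated transcription start (RefSeq, GRCh38.p14) lay under 802 of the 8563 regions (9.37%): a protein-coding start in 708 and a start of a long non-coding RNA only in 94. The start windows below run from 250 bases before to 50 after such a start, on the strand of the gene, and each lay wholly inside its region. Capitals mark GGGCGG or its reverse complement CCGCCC (a GC box). They also mark GAGGAA or its reverse complement TTCCTC, an ETS core of the kind PU.1 binds and the sole form counted here. GGAA with other letters before it was not counted, so a window without the counted form can still hold an ETS site. The GC box and this ETS core can share at most their end letters.

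The first windows come from 4 of the 10 regions with the highest mean percentile. DCUN1D4 (a cullin neddylation factor; chr4:51843329-51843628, plus strand) had a mean percentile of 99.8, UBE2D3 (a ubiquitin-conjugating enzyme; chr4:102827502-102827801, minus strand) of 99.7, EHBP1 (a protein that links endocytosis to actin; chr2:62706063-62706362, plus strand) of 99.6 and GCA (grancalcin, a calcium-binding protein of neutrophils and macrophages; chr2:162343882-162344181, plus strand) of 99.4.
DCUN1D4: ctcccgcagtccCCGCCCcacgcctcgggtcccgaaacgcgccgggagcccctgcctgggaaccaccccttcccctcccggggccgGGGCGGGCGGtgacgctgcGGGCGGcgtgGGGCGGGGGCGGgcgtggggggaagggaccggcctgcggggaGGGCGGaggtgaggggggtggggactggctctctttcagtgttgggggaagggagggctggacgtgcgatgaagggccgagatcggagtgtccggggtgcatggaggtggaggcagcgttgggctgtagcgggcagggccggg
UBE2D3: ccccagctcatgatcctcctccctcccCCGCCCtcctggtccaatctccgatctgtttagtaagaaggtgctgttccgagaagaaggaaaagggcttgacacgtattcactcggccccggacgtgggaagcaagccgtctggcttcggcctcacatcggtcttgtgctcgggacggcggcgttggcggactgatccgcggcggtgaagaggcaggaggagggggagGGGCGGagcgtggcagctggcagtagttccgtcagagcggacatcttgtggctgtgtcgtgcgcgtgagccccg
EHBP1: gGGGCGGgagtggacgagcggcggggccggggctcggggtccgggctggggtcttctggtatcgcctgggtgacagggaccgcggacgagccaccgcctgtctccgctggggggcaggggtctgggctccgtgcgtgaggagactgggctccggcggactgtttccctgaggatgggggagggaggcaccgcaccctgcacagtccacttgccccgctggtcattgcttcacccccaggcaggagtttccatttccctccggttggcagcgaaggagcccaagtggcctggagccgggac
GCA: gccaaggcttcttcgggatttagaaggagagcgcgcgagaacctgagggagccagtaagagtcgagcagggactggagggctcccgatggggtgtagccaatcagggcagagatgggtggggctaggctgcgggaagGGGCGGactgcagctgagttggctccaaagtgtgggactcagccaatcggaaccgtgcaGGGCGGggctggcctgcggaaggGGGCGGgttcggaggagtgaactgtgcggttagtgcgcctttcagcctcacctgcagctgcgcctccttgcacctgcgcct

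The 4 windows held between 1 and 7 GC boxes each and no ETS core of the counted form, and their GC content ran from 63.7 to 76.0%. The next windows come from genes of the gene lists described further on, and are shown because they are inner starts of genes with a role in microglia: MEF2C (a transcription factor; chr5:88827143-88827442, minus strand, mean percentile 94.3), NFKBIZ (an inhibitor-like regulator of NF-kB that is induced by Toll-like receptors; chr3:101849264-101849563, plus strand, 91.9), DOCK10 (an activator of small GTPases; chr2:224947000-224947299, minus strand, 82.2), CX3CR1 (the fractalkine receptor; chr3:39280392-39280691, minus strand, 46.98) and RUNX1 (a transcription factor of blood cells; chr21:34888650-34888949, minus strand, 38.0).
MEF2C: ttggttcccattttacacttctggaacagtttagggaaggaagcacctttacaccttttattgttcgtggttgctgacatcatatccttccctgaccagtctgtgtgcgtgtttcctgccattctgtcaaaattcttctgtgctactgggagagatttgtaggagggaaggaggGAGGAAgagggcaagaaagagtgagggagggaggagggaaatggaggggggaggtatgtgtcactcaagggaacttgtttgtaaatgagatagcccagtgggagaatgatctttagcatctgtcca
NFKBIZ: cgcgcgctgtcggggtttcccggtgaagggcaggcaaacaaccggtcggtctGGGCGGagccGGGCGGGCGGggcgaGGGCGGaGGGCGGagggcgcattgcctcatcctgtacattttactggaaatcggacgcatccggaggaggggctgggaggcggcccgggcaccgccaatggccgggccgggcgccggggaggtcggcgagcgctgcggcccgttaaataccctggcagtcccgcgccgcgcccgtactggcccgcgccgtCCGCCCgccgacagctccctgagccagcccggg
DOCK10: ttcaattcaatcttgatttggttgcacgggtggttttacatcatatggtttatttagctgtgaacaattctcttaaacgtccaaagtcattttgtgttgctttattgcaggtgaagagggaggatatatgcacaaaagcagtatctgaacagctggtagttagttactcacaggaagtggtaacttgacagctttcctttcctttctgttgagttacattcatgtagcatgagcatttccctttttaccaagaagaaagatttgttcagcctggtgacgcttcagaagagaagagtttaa
CX3CR1: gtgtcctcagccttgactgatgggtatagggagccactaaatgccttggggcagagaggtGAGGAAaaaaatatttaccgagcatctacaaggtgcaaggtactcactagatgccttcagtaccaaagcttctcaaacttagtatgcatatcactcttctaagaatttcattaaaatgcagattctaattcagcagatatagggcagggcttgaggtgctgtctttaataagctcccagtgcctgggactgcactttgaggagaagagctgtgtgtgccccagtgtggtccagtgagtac
RUNX1: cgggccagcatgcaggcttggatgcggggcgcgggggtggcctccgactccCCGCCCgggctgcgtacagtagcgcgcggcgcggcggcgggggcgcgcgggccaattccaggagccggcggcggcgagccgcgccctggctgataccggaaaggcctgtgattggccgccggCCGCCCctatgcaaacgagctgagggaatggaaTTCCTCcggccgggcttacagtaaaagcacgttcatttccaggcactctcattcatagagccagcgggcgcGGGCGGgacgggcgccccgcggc

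MEF2C and CX3CR1 held 1 ETS core of the counted form and no GC box, and NFKBIZ 6 GC boxes and no such core. RUNX1 held 3 GC boxes and 1 such core. DOCK10 held neither pattern, though its window has GGAA with other letters before it. GC content was 38.3% in the DOCK10 window, 46.0% in CX3CR1, 47.3% in MEF2C and 74.7% in NFKBIZ. The CpG count per window was 3 or less in DOCK10, CX3CR1 and MEF2C, 40 in RUNX1 and 42 in NFKBIZ. The inner starts thus included both CpG-rich and CpG-poor windows.

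Taking 1 window for each of the 802 regions, on both strands, 58.7% held a GC box, 32.3% an ETS core, 36.7% a CCAAT box (CCAAT), 6.73% an AP-1 motif (TGANTCA), 6.23% a TATA box (TATAAA) and 2.37% a cyclic AMP response element (TGACGTCA). No one of these 6 patterns contains another. Over all 35116 windows of the table the shares were 44.95, 27.9, 34.6, 7.71, 11.5 and 1.85%. The median window of the regions had 63.0% GC and 22 CpG, as had the first-listed outer start of 14572 genes. For 2794 inner starts that lay outside the regions, 1 per gene, the medians were 57.0% GC and 8 CpG, and 39.2% held a GC box. Among start-bearing regions with a mean percentile over 75 (299 windows) the median CpG count was 27 and 64.5% held a GC box; among those under 25 (61 windows) the values were 7 and 32.8%, while a TATA box was found in 4.68 and 19.7% and an ETS core in 30.4 and 36.1%. These are descriptions of letters in windows, with no test.

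The regions were spread over many genes. Of 17951 autosomal protein-coding genes long enough to have an interior, 4090 (22.8%) held at least 1 region; 2266 held exactly 1, 999 held 3 or more, 394 held 5 or more and 59 held 10 or more. The 394 genes with 5 or more held 32.2% of the regions. Over all genes there were 7.26 regions per Mb of gene interior, and 153 regions lay in 2 or more overlapping genes. Number and interior length were related across genes (Spearman 0.512, Pearson 0.568, 17951 genes, which are not independent). The longest 10% of genes held 53.3% of all interior and 50.0% of the region-gene pairs. Density was 0.380 per Mb in the shortest 10% of genes, 7.08 in the fifth of the 10 length classes, 8.20 in the eighth and 6.82 in the longest. A region had to lie wholly inside the interior, whose median was 1.45 kb in the shortest class. The median region was 1361 bp wide, so the rule itself leaves little room for regions there.

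Among the genes holding many was ROBO2, a Slit receptor of axon guidance, with 18 regions over 1743 kb. DOCK10 held 15 over only 277 kb, and the transcription factor gene ZFHX3 15 over 1109 kb. ELMO1, the partner of DOCK proteins in Rac activation during engulfment, LDLRAD4, an inhibitor of TGF-beta signalling, and XYLT1, which starts glycosaminoglycan chains, held 14 each. ATXN1, DLG2, LPP, MAF and MCC held 13 each, and ANK3, CREB3L2 and MAGI1 12 each. MAF encodes a transcription factor of macrophages and DLG2 a synaptic scaffold. The share of a gene's regions that was called in all libraries varied among these genes: it was 13 of the 109 intragenic regions called in any library in DLG2, 15 of 48 in DOCK10 and 12 of 20 in CREB3L2.

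**Figure D1:**
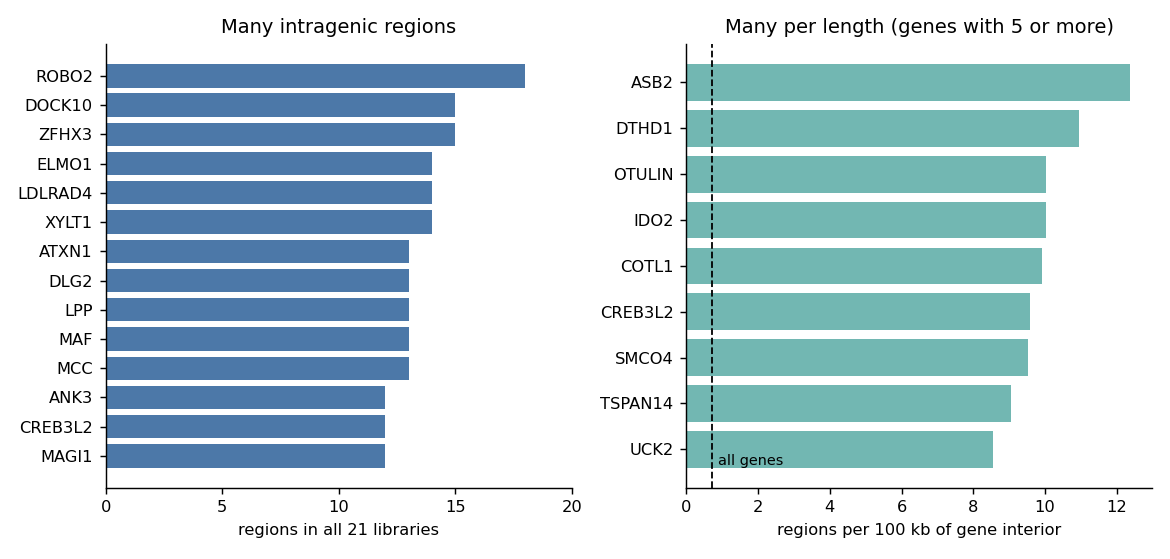
Genes named for many intragenic regions called in all 21 libraries (left, number of regions) and for many per 100 kb of gene interior among those with 5 or more (right, dashed line at the value over all genes). ROBO2 is drawn at 18 regions and ASB2 at 12.4 per 100 kb, and CREB3L2 is in both panels.

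Per length, other genes led. ASB2, an adaptor of a cullin ubiquitin ligase, held 5 regions at 12.4 per 100 kb. DTHD1 had 11.0, OTULIN, which cuts linear ubiquitin chains, 10.0, IDO2, an enzyme of tryptophan breakdown, 10.0, and COTL1, an actin-binding protein, 9.90. CREB3L2, a membrane-bound transcription factor, had 9.59, SMCO4 9.52, TSPAN14, a tetraspanin that helps the protease ADAM10 mature, 9.05 and the uridine kinase UCK2 8.54. Regions of OTULIN lie in the span of ANKH as well. The mean percentile over a gene's regions ran from 31.1 in IDO2 to 73.9 in ASB2 among these genes.

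Gene lists gave the counts by function. The lists were chosen with earlier results of these data known, so the densities are descriptions and carry no test. Among homeostatic microglia genes 12 of 23 held a region, 25.6 per Mb of interior; ENTPD1 (CD39, an ectonucleotidase) and TGFBR2 (a TGF-beta receptor) held 6 each, and CSF1R, CX3CR1, ITGB5 and MEF2C 3 each. Innate sensing and NF-kB genes had 28.8 per Mb, with a region in 19 of 37 genes: IL1RAP and TNFAIP8 held 6 each, and NFKB1 and NLRP3, the inflammasome sensor, 4 each. Regulators of actin and small GTPases had 176 regions in 37 of 45 genes, 19.3 per Mb, with 10 in ARHGAP24 and 9 each in ARHGAP26, DOCK4 and FGD4 beside DOCK10 and ELMO1. Myeloid transcription factors had 18.7 per Mb (25 of 44 genes; MAF 13, ETV6 10, BACH2 and FLI1 6 each). The density over all genes was 7.26 per Mb.

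Genes at Alzheimer risk loci had 65 regions in 19 of 40 genes, 16.5 per Mb: PTK2B (a focal adhesion-type kinase), RIN3 (a Rab5 activator) and WWOX held 8 each, PLCG2 and TSPAN14 6 each, and INPP5D 5. Disease-associated microglia genes had 11.5 per Mb in 7 of 25 genes, with 4 in the lysosomal lipase gene LIPA and 3 each in ACSL1 and FLT1. Lysosome and endosome genes had 10.7 per Mb in 10 of 28, with 4 in SORL1, and chromatin regulators 8.35 per Mb in 22 of 48, with 11 in the histone demethylase gene KDM4C. Housekeeping genes, mostly short, had 3 regions in 2 of 23 genes (RAB7A and GPI), 6.78 per Mb. Of the edited genes and APOE, SORL1 held 4 regions and INPP5D 5, while TREM2, CD33 and APOE held 0.

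**Figure D2:**
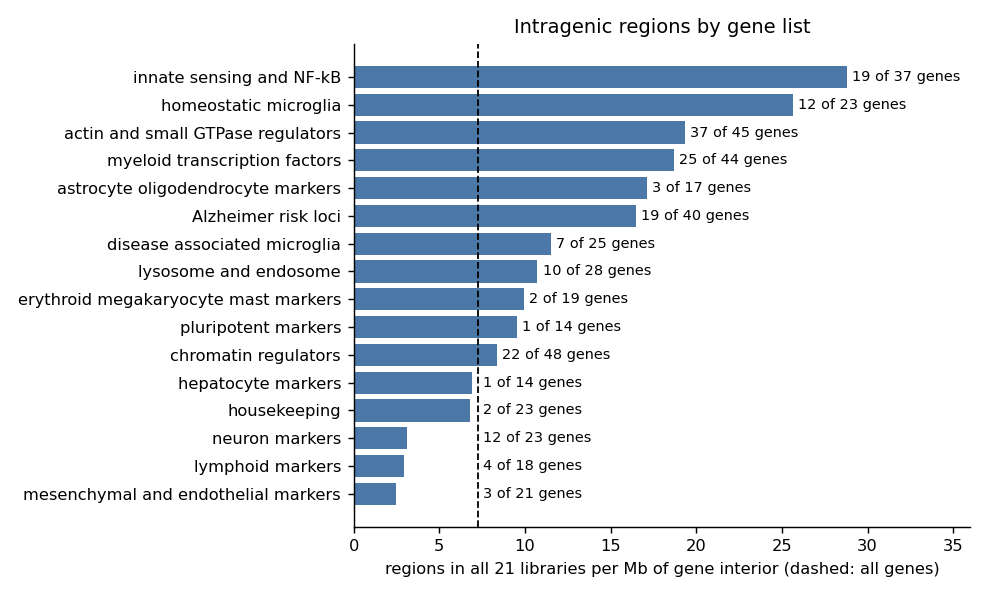
Intragenic regions called in all 21 libraries per Mb of gene interior for 16 gene lists, with the number of genes that held at least 1 region; the dashed line is the value over all genes. Innate sensing and NF-kB genes had 28.8 per Mb, and neuron, lymphoid and mesenchymal or endothelial markers lay below the line at 3.10, 2.93 and 2.49.

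Of the 7 lists of other cell types, 4 lay below the density over all genes and 3 above it. Neuron markers had 48 regions in 12 of 23 genes but 3.10 per Mb, 13 of them in DLG2 and 8 in CSMD1. Lymphoid markers had 4 regions (2.93 per Mb), mesenchymal and endothelial markers 4 (2.49 per Mb) and hepatocyte markers 3, all in CPS1 (6.93 per Mb). Astrocyte and oligodendrocyte markers had 17.1 per Mb, but 11 of their 13 regions lay in MBP, whose annotated span includes the longer Golli transcription unit. Erythroid, megakaryocyte and mast cell markers had 5 regions, 3 of them in KIT (9.92 per Mb), and pluripotency markers 3, all in LIN28B (9.50 per Mb). At the gene ends, 7 of 10 microglia markers had a region in every library (P2RY12, CX3CR1, GPR34, CSF1R, SPI1, TYROBP and ITGAM). AIF1 had one in 18 libraries, and TMEM119 and SALL1, which mark brain-resident microglia, in 0. Of the markers of other cell types 6 of 36 had one in every library (STMN2, MBP, PDGFRB, KIT, CD3E and BCL11B), and none of the pluripotency or hepatocyte markers did. Several of the rest fell short by few libraries. SLC17A7 and SLC1A2 had one in 20 libraries and PECAM1 in 18. SNAP25, the pluripotency marker SOX2 and the hepatocyte marker APOA1 had one in 17.

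The regions were of moderate width. The median width of a merged region was 1361 bp, with quartiles at 1092 and 1947 bp and a range of 661 to 11933 bp, and together they covered 14.1 Mb. Within a library the median covered width was 754 to 1059 bp, and 7367 regions (86.0%) held exactly 1 peak in every library. Only 82 were wider than 5 kb, and 1239 (14.5%) were narrower than 1 kb. The widest lay in PTPRE (a receptor-type tyrosine phosphatase; chr10:128046695-128058627, 11933 bp), CELF2 (an RNA-binding protein, 10738 bp), ZMIZ1 (10215 bp), STK17B (9419 bp), TGIF1 (8699 bp), DUSP22 (8611 bp), MARCHF1 (a ubiquitin ligase of MHC class II, 8387 bp), TRIO (8307 bp), PDE4B (7748 bp) and CYRIA (7410 bp). Wider regions stood higher in the lists (Spearman 0.651 across the 8563 regions, which share libraries and are not independent).

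At the top of the lists 4 regions overlapped pseudogenes that resemble mitochondrial DNA, where reads of mitochondrial origin can be placed. The region in LOC102724250 (chr1:628933-635309), over 7 such pseudogenes, was at percentile 100.0 in every library, and the region in PCBD2 (chr5:134923116-134928788), over 6, at 99.99 or more. The region in SMAD2 lay over MTCO2P2 (mean 99.0); how far mitochondrial reads set these values was not tested. Of the first 10, beside the 4 whose windows are printed above, others lay in TRIQK (mean 99.7), CADPS2 (99.4) and SMC2, a condensin subunit (99.3). At the other end stood CHN1 (mean 1.58), INPP4B (2.41), TRAF3IP2 (2.42), PLXNA2 (2.45), PSD3 (2.54), ANO3 (2.59), PIK3C3 (2.64), PTPRQ (2.66) and PSIP1 (3.08). Each of the 10 lowest was 700 to 966 bp wide, with a median covered width of 501 bp. The region in CHN1 ranged from 0.0391 to 7.22 with a median of 0.504 over the libraries.

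Regions with an annotated start stood higher and were wider. This split was chosen after the data had been seen. The median of the mean percentile was 65.0 with a start and 37.9 with neither a start nor a mitochondrial-like pseudogene, and the median widths were 2176 and 1309 bp. Per library the median percentile of start-bearing regions exceeded that of the rest by 28.4 points ± 4.95 (SD, n = 21 libraries), higher in 21 of 21, and their median covered width by 617 bp ± 152, also in 21 of 21. Both differences had p = 2e-05 in a two-sided permutation test of signs over the libraries, the smallest that 100000 resamples can give, adjusted over 2 tests. A wider region has more room for a start, so the split itself favours wide regions. The width test can therefore not show that starts and width go together beyond this. Within 5 equal bins of covered width the percentile difference was 1.51 points ± 3.08 (n = 21), positive in 14 libraries and negative in 7 (permutation p = 0.0357). The share of regions with a start was 2.17% below percentile 10 and 39.1% above 90, where 126 of 322 regions had one.

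**Figure D3:**
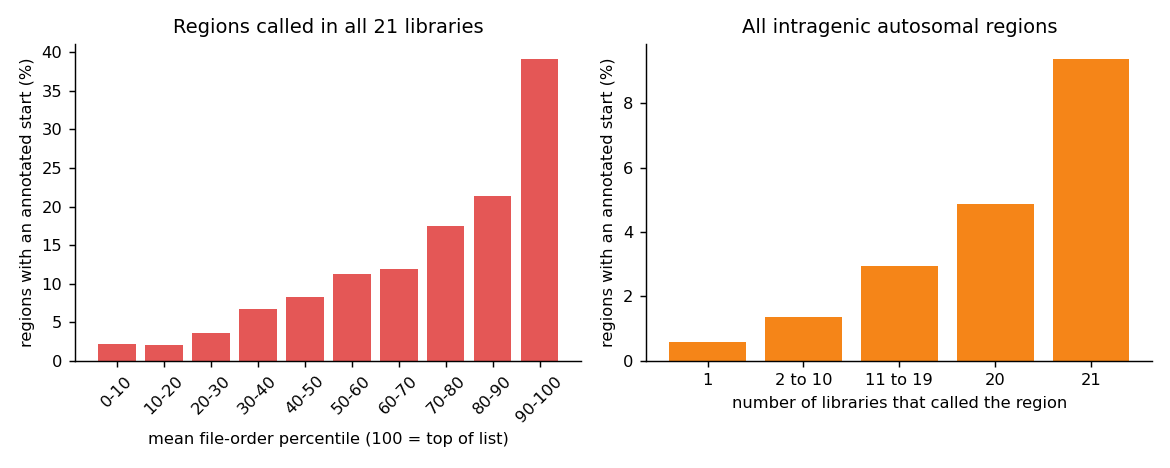
Share of regions that hold an annotated start, by mean file-order percentile among the 8563 regions (left) and by the number of libraries that called the region among all intragenic autosomal regions (right). The share reaches 39.1% above percentile 90, and goes from 0.599% in regions of 1 library to 9.37% in regions of all 21.

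The same share followed recurrence. It was 0.599% of 16181 intragenic regions called in 1 library, 1.36% of those in 2 to 10, 2.93% in 11 to 19, 4.86% in 20 and 9.37% in 21. Since recurrent regions are wider, the number per Mb of region is given as well: 11.5 in 1 library, 37.5 in 20 and 56.7 in 21. The start table covers 15100 of 19122 autosomal protein-coding genes, so the counts of starts are lower limits. Inner starts under regions were found in several genes of the microglia lists beside those printed, among them ENTPD1, LIPA, TSPAN14, NFATC2 and TNIP1.

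Inside genes, density was highest 5 to 10 kb from the start when start-bearing regions were counted, and nearly level from 5 to 200 kb when they were not. For genes with a known strand, density was 6.23 per Mb between 1 and 5 kb from the gene start, 9.42 between 5 and 10 kb, 8.53 between 10 and 20 kb, 7.29 between 100 and 200 kb and 5.87 beyond 200 kb. Measured from the gene's other end the first 2 values were 4.99 and 7.10 per Mb. Distances were taken from region midpoints, but the whole region had to lie more than 1 kb from any gene end. This rule lowers the 1 to 5 kb values, above all for wide regions, by an amount that was not tested. Regions called in 1 library had 14.8 and 14.4 per Mb in the first 2 classes from the start. Without the start-bearing regions the density from the start was 4.45 per Mb between 1 and 5 kb, 7.36 between 5 and 10 kb, 7.07 between 10 and 20 kb, 6.97 between 20 and 50 kb, 7.04 between 50 and 100 kb, 6.76 between 100 and 200 kb and 5.61 beyond. Of 7205 region-gene pairs with a strand, 52.9% lay nearer the start of the gene than its end, against 50.9% of the regions called in 1 library; without the start-bearing regions the share was 51.1%. The median distance to the nearest end of any protein-coding gene, host or not, was 29.5 kb. More than 100 kb from any such end were 1532 regions. Neighbouring regions of 1 gene were a median of 19.4 kb apart, and 19.96% of 4590 gaps were under 5 kb. By chromosome, density was highest on 6 (9.38 per Mb of gene interior) and 4 (8.84) and lowest on 17 (2.91) and 22 (2.17).

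Intragenic regions stood far below gene ends and close to intergenic regions. The comparison used the autosomal regions called in every library: 8563 intragenic, 7298 within 1 kb of a gene end and 8694 in neither. The median percentile of intragenic regions was 38.5 to 43.7 over the 21 libraries, that of gene ends 68.0 to 78.9, and the difference was -31.9 points ± 5.59 (SD, n = 21), negative in 21 of 21. The median covered width differed by -629 bp ± 146, also in 21 of 21. Both had p = 2e-05 (two-sided permutation test of signs, the smallest it can give; adjusted p = 4e-05 over 4 tests). A region counted as a gene end if any part lay within 1 kb of one, so wide regions enter that class more easily. The width test can therefore not show a difference beyond this rule. Within 5 equal bins of covered width the difference in percentile was -5.08 points ± 3.86, negative in 18 of 21 (permutation p = 6e-05, adjusted 0.00012).

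Against intergenic regions the intragenic ones were 1.32 points ± 1.77 higher (n = 21; permutation p = 0.00400, adjusted 0.00400) and 20.7 bp ± 22.5 wider (p = 0.0004, adjusted 0.000533). The sign of the percentile difference followed the replicate number: it was positive in the 14 libraries of replicates 1 and 3 and negative in the 7 of replicate 2, which had the fewest tags. It was 0.497 points without replicate 1 (permutation p = 0.252), 1.05 without replicate 3 (permutation p = 0.0833) and 2.42 without replicate 2 (permutation p = 0.0001, the smallest that design gives). Within the 5 width bins it was 0.114 points ± 0.528 (permutation test, adjusted p = 0.331). The permutation test takes the 21 libraries as independent, but those of 1 replicate number shared the sign. Its p-values for this difference can therefore be too small. On either side of the 1 kb limit, 250 regions 1 to 2 kb from a gene end had a median percentile of 42.6, 383 regions within 1 kb that did not cover the end had 42.99, and 6915 that covered it had 72.9.

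**Figure D4:**
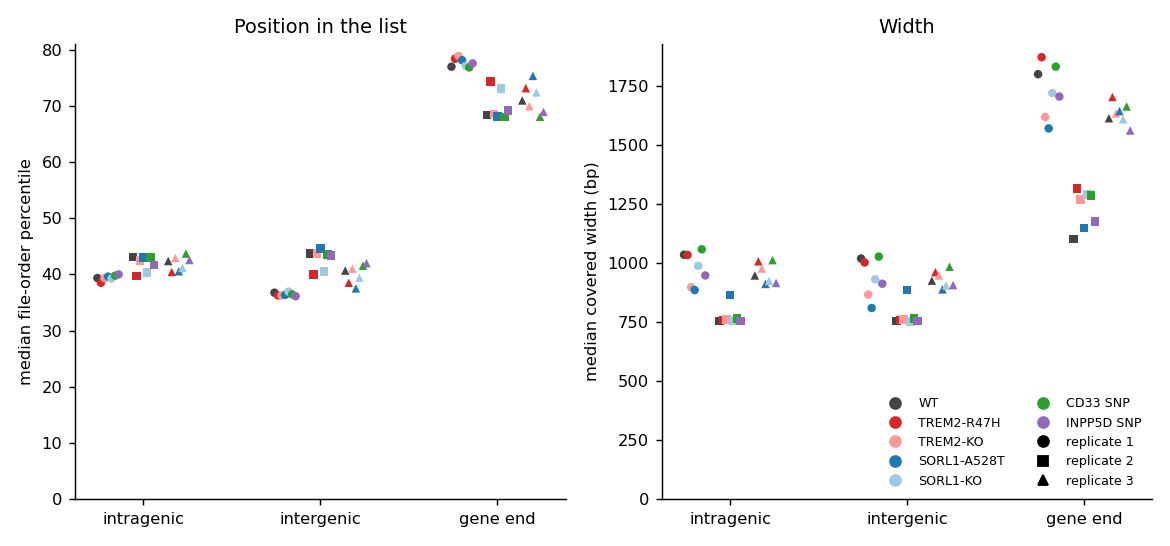
Median file-order percentile (left) and median covered width in bp (right) of intragenic, intergenic and gene-end regions called in all 21 libraries; each point is 1 library, coloured by line and shaped by replicate number. Gene ends lie above both other classes in every library, and among intragenic and gene-end regions the replicate 2 libraries have the narrowest peaks.

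The number of tags moved with the replicate number, and the regions that fell 1 library short were missing mostly from replicate 2. Tags per library were 56.5 to 67.4 M for replicate 1 (M, 1000 times 1000 tags), 12.8 to 17.5 M for replicate 2 and 32.6 to 52.9 M for replicate 3, and the lists held 39736 to 102891 peaks. Of the 2985 intragenic regions called in 20 of 21 libraries, 96.1% were missing from a replicate 2 library, and 1684 (56.4%) from SORL1-A528T replicate 2 alone (14.2 M tags). The library with the fewest tags, SORL1-KO replicate 2 (12.8 M), lacked 165 of them. Without the replicate 2 libraries 17485 intragenic regions were called in every library, and without the 3 SORL1-A528T libraries 10403. Only 3044 had peaks over at least 50% of the region in each library. The regions of 20 libraries had a median width of 1085 bp and a median position at percentile 59.9 of the whole list, against 78.2 for the 8563.

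Across libraries the positions varied by a median SD of 10.2 points per region, and within lines by 9.79. The regions with the largest spread changed with the replicate number. The start-bearing region of the monocarboxylate transporter gene SLC16A3 (SD 33.2) was at percentile 88.5 to 97.1 in the 7 replicate 1 libraries, 4.17 to 62.8 in replicate 2 and 26.3 to 93.7 in replicate 3. VPS13B (SD 32.8) went the other way, with 4.56 to 40.7 in replicate 1, 74.4 to 96.7 in replicate 2 and 57.2 to 86.1 in replicate 3. C1QTNF3 (SD 31.9), RUNX1 (SD 31.1) and WNT5A (SD 28.5) were highest in replicate 1 in 6, 7 and 7 of the 7 lines. For RUNX1, whose window is printed above, the values were 62.0 to 85.9, 0.875 to 51.9 and 1.43 to 55.5 in replicates 1, 2 and 3. Depth differed between the replicate numbers too, but these values did not always keep its order. The WT libraries had 65.4, 15.5 and 48.5 M tags in replicates 1, 2 and 3. There RUNX1 was at 62.6, 4.09 and 1.43, which breaks the order, and VPS13B at 6.29, 89.8 and 86.1, which keeps it. The part of depth was not tested.

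Between lines few regions moved beyond the spread when the replicate number was left out of the fit. The 6 edited lines were each compared with WT by limma on the percentiles of all 25599 regions, with Benjamini-Hochberg adjusted p below 0.05 as the threshold. The comparisons share the WT libraries. In these bulk libraries, fewer cells with an open region and less opening per cell cannot be told apart. TREM2-R47H had 21 intragenic regions past the threshold, which is 0.245% of the 8563 against a background of 0.195% of all regions; 6 were higher (background 0.0781%) and 15 lower (background 0.117%). SORL1-A528T had 2, both lower (background 0.0352% in either direction, 0.0273% lower), SORL1-KO 1, lower (background 0.0117%), and TREM2-KO, CD33 SNP and INPP5D SNP 0 (background 0.0, 0.00781 and 0.0%). At this threshold the share among intragenic regions was thus near that of all regions. At an unadjusted limma p below 0.05 these last 3 had 121, 86 and 136 of the 8563 regions higher and 140, 45 and 117 lower. The share of all 25599 regions at that level was not counted, and a p below 0.05 without adjustment is not a call. No result is drawn from these counts. Same-numbered libraries of a line and WT deviated together in every comparison, except at replicate 3 of SORL1-A528T. With the replicate number as a block, TREM2-R47H had 343 intragenic regions (background 3.39%) and 110 of 999 genes (11.0%) in place of 0. SORL1-A528T then had 26 regions (background 0.301%), and the other 4 comparisons had 0 or 1 region each.

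The lead region of TREM2-R47H lay in MED13L, a subunit of the Mediator kinase module (chr12:115960413-115961874). Its percentile was 76.3, 84.5 and 83.2 in the WT libraries and 25.9, 7.90 and 17.7 in TREM2-R47H, while the 15 libraries of the other lines ranged from 55.2 to 89.2. The groups did not overlap, as was the case for 15.3% of all regions in this comparison. The difference was -64.2 points (SE 5.88, adjusted p = 4.57e-05), and the mean covered width at the locus was 1144 bp ± 179 in WT and 726 bp ± 158 in TREM2-R47H (SD, n = 3). MED13L kept its call in 10 of 11 alternatives (adjusted p from 1.30e-05 to 0.283).

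A cadherin gene came next: CDH4 (chr20:61912140-61913339) was at 57.6, 64.9 and 65.4 in WT and at 22.6, 4.06 and 10.9 in TREM2-R47H, a fall by 50.1 points (SE 7.49, adjusted p = 0.0105). CNTN4, a neural adhesion molecule, was at 53.3, 78.5 and 76.6 in WT and 17.6, 18.8 and 16.5 in TREM2-R47H (adjusted p = 0.0105), and TENM4, a teneurin, fell by 25.3 points (adjusted p = 0.0135). In MED13L, CDH4, CNTN4 and TENM4 the TREM2-R47H libraries lay below every WT library and below all 15 libraries of the other lines. These regions were chosen for their difference from WT, and 15.3% of all regions do not overlap between TREM2-R47H and WT. The share of all regions that also lie apart from the other 15 libraries was not counted. CDH4 kept its call in 8 of 11 alternatives, and CNTN4 and TENM4 in 7 each.

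Higher in TREM2-R47H were VWC2L, ABCE1, ANK1, L3MBTL4 and FNIP2 among others. VWC2L (chr2:214550586-214551589) was at 11.7, 12.1 and 5.97 in WT and 34.4, 45.2 and 30.3 in TREM2-R47H, a rise of 26.7 points (SE 4.43, adjusted p = 0.0135). ABCE1, a ribosome recycling factor, rose by 30.5 points (adjusted p = 0.0153), from 8.57 ± 3.36 to 39.0 ± 3.09 (SD, n = 3). ANK1, an ankyrin of the membrane skeleton, rose by 40.5 points (adjusted p = 0.0153), L3MBTL4 by 41.4 (adjusted p = 0.0424) and FNIP2, a folliculin partner, by 36.4 (adjusted p = 0.0435). These calls held in fewer alternatives, in 6 of 11 for ABCE1, 5 for VWC2L, 4 for ANK1, 3 for FNIP2 and 2 for L3MBTL4. For VWC2L and ABCE1 all TREM2-R47H values lay above the 15 libraries of the other lines, whereas those of ANK1, L3MBTL4 and FNIP2 overlapped them. The share of all regions that lie apart in this way was not counted. The ANK1 region was the sole one of any gene list past the threshold in any of the 6 comparisons. The median difference of the 35 regions in homeostatic microglia genes was 2.54 points in TREM2-R47H, against -1.03 over the 8563. It was 0.684 in TREM2-KO, -1.12 in SORL1-A528T, 3.87 in SORL1-KO, 3.97 in CD33 SNP and 1.91 in INPP5D SNP. Over the 8563 the values in these lines were -0.260, -0.380, -0.740, 0.292 and -0.267, in the same order. These list medians were not tested, and their spread over libraries was not computed. In TREM2-R47H the gene lists ran from -6.03 (neuron markers, 48 regions) to 6.92 (lymphoid markers, 4 regions).

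**Figure D5:**
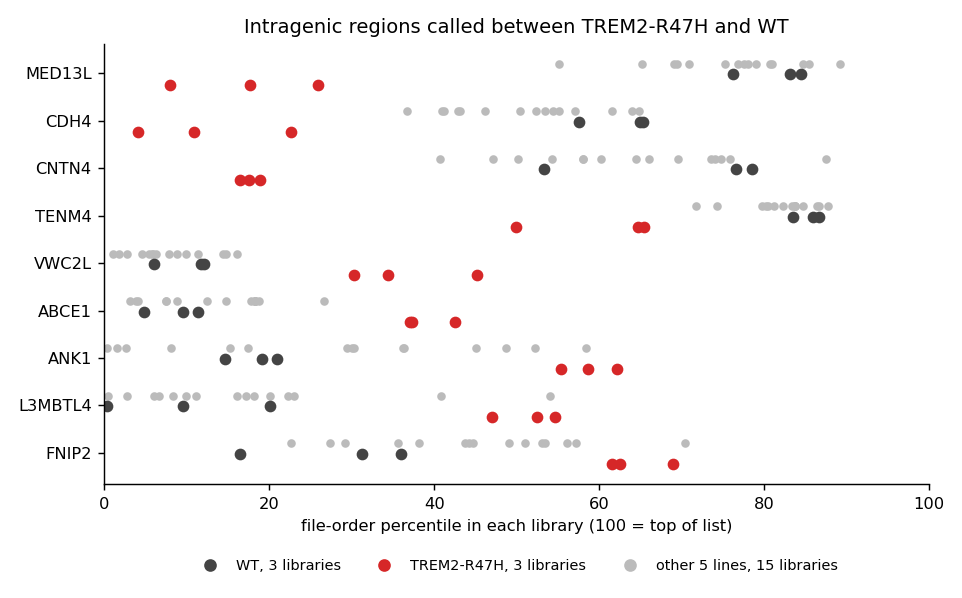
File-order percentile of 4 lower and 5 higher intragenic regions named for their small adjusted p in TREM2-R47H against WT, by host gene; dark points are WT, red points TREM2-R47H and grey points the 15 libraries of the other 5 lines. The 9 were chosen by this comparison, so the gap between red and dark points in each adds no support. The same 2 groups do not overlap in 15.3% of all regions. In MED13L the red points lie at 25.9 or less against 76.3 or more in WT.

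The count for TREM2-R47H depended on single libraries and on the replicate number. With the block, the 343 intragenic regions that passed (4.01% of the 8563) were 72 higher (background 0.781%) and 271 lower (background 2.61%). Without the block, the count was 96 without WT replicate 1 (background 0.867%), 1 without WT replicate 2 (background 0.0117%) and 1 without WT replicate 3 (background 0.00781%). It was 3, 10 and 16 without TREM2-R47H replicates 1, 2 and 3 (background 0.0234, 0.0859 and 0.148%).

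In SORL1-A528T one of the fallen regions lay in the follicle-stimulating hormone receptor gene FSHR. This region, at 77.7, 82.5 and 88.4 in WT and 53.2, 56.9 and 42.2 in the libraries titled SORL1-A528T, fell by 32.1 points (SE 5.38, adjusted p = 0.0393). The call was lost in most alternatives, with 2 of 10 past the threshold. With the replicate block 26 intragenic regions passed in SORL1-A528T (0.304% against a background of 0.301%), though there the replicate 3 libraries did not deviate together (r = 0.0598). The SORL1-KO region lay in the mitochondrial ribosomal protein gene MRPS27 (chr5:72307427-72309186): it was at 95.0, 89.6 and 95.4 in WT, at 77.1, 72.9 and 73.4 in SORL1-KO and at 91.1 to 96.7 in the other lines, a difference of -18.9 points (SE 1.71, adjusted p = 1.98e-05). This call held in 9 of 11 alternatives (adjusted p up to 0.504). Covered width at MRPS27 was 1205 bp ± 182 in SORL1-KO and 1209 bp ± 325 in WT, so the place in the list fell while the width differed by less than the spread.

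For the other lines the regions with the smallest p were TMEM232 in TREM2-KO (43.6 points, adjusted p = 0.536), RBM47 in CD33 SNP (19.6 points, adjusted p = 1.0) and RAD54B in INPP5D SNP (24.7 points, adjusted p = 0.463). With the replicate block TMEM232 had adjusted p = 0.0453 and was the sole intragenic call of TREM2-KO (background 0.00391% higher). In that fit 2 of all 25599 regions were called, 1 higher and 1 lower. Averaging the regions of a gene, for the 999 genes with 3 or more, gave 1 call in 6 comparisons: RAPGEF2, a Rap activator, in CD33 SNP (background 0.1%). Its mean percentile over 3 regions was 16.4, 8.07 and 21.98 in WT and 33.5, 42.2 and 35.7 in CD33 SNP, a rise of 21.6 points (SE 4.13, adjusted p = 0.0408), and 2 of 11 alternatives kept it. With the replicate block TREM2-R47H had 110 genes past the threshold (11.0% of 999), 22 of them higher (2.2%) and 88 lower (8.81%), TREM2-KO 1 and the CD33 SNP call had adjusted p = 0.0180. The regions in the edited genes did not pass: the 4 in SORL1 and 5 in INPP5D had adjusted p of 0.468 or more in all 6 comparisons, and the SORL1 region at chr11:121481483-121484574 was at 55.8, 0.406 and 55.2 in WT, where replicate 2 stood apart from the other two.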

How the data were processed

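The 21 deposited lists hold ATAC-seq peaks, 1 list per library. The authors used cutadapt 1.18, STAR 2.7, HOMER 4.10 and DESeq2, per the submitters' processing notes. Per the file headers, HOMER findPeaks ran in histone style on each library (peak size 500, minimum distance 1000, 4.00-fold over the local 10000 bp, local Poisson p 1.00e-04). The score that the authors deposited is 1 for every peak, so it carries no height; start and end are the only other values. The sources used here give neither a read shift for the transposase nor the genome build.

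The members and gene lists were chosen with earlier results of these data known. Genes came from a RefSeq table of GRCh38.p14; of 38244 autosomal gene ends 21.95% fell within regions of all 21 libraries, and 2.77 and 2.86% after shifts of 10 kb. Percentiles ran over the 25599 regions called in every library. Lines were compared with limma 3.58.1 (R 4.3.3; trend, all 21 libraries, two-sided, Benjamini-Hochberg adjustment, no filter), genes needing at least 3 regions. Classes were compared by the difference of medians per library, with signs permuted (scipy 1.17.1, 100000 resamples, two-sided). Both steps were tested on simulated data. Depth is the tag number in the headers. List length did not follow it alone (TREM2-KO replicate 1 had 60.6 M tags and 70130 peaks, replicate 3 49.0 M and 102891), and percentiles within shared regions take out the length but not the noise of the order. No reference genome was used, so sequences are RefSeq start windows only. Same-numbered libraries of a line and WT deviated together with r of 0.149 to 0.722 in 5 comparisons. Only the replicate block used the numbers as pairs. The main fit left them out, so SE and adjusted p of named regions and genes are unpaired unless the block is named. In SORL1-A528T r was 0.513, 0.473 and 0.0598 for replicates 1, 2 and 3. Libraries of different numbers reached 0.0798 for replicate 3. The block was 1 fit over all 21 libraries, SORL1-A528T included. Named were the 15 genes with most regions and 10 with most per length, the 10 highest, lowest and widest regions, 5 each of largest and smallest SD (the latter repeat the top of the lists), up to 5 regions and genes per direction and comparison, up to 6 genes per list, APOE and the edited genes. Some genes that this rule names are not reported here. Inner starts, their windows and the genes named for them were chosen after their values were seen. Peaks on Y, the mitochondrial genome and other sequences (1318 of 1604926) were left out. Alternatives were other count rules, the replicate block, normal scores, mean list position, fewer libraries and leaving out libraries.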

Additional observations from a re-analysis of the deposited data

How the results depend on the processing

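The number of intragenic regions called in every library was 8563. It was 3044 with peaks over at least 50% of a region, 4153 in the upper 50% of each list, and 8629 to 17485 when each replicate number was left out; the other settings stayed within 1.5 times. For TREM2-R47H the 21 regions past the threshold became 343 with the replicate block, 59 with normal scores, 12 without the SORL1-A528T libraries, 0 with the libraries of the 2 lines alone, and 1 to 96 with single libraries left out; its 0 genes became 110 with the block and 0 to 6 with libraries left out. With the replicate block TREM2-KO had 1 region and 1 gene in place of 0. SORL1-A528T went from 2 regions to 26 with the block (77 of all 25599 regions), 0 by mean list position and 0 with the 2 lines alone. It had 0 to 4 regions with libraries left out, and went from 0 genes to 5 with the block. In that comparison the replicate 3 libraries did not deviate together. SORL1-KO lost its region (0) with normal scores and with the 2 lines alone, kept 1 with each library left out, and had 0 to 3 genes. CD33 SNP had 0 genes in place of 1 with normal scores, mean list position, without SORL1-A528T, with the 2 lines alone and with at least 5 regions per gene, and 0 to 1 with libraries left out, as had INPP5D SNP. The replicate block changed no other call. The class differences kept their sign. Only that between intragenic and intergenic percentile lost its call: it was 0.114 points (permutation p = 0.331, 21 libraries) within 5 width bins and 0.497 to 2.42 with a replicate number left out. RBM47 in CD33 SNP, which had not passed, changed sign by mean list position (-1.48 points). With the 2 lines alone, 6 libraries set the spread. The cause of these changes was not tested. With 3 libraries per line, the test can miss most shifts in percentile, large ones included, and regions missing from the shallow replicate 2 lists may be open there.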

Other observations

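On chromosome X, which the count leaves out, 349 intragenic regions were called in all 21 libraries, with a median mean percentile of 36.5. DIAPH2, a formin that nucleates actin, held 10, IL1RAPL2 8, and CASK, GPC3 and MSN, the actin-membrane linker moesin, 7 each. Among the autosomal regions, 24 contained 31 annotated mature miRNAs.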
